A study of Mus musculus with 12 samples.

Results

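The nuclear genes for respiratory complexes II to V and cytochrome c were taken from the deposited table by symbol: *Sdha* to *Sdhd*, every symbol opening with *Uqcr*, *Cyc1*, *Cycs*, every symbol opening with *Cox4* to *Cox8*, and every symbol opening with *Atp5*. The pattern found 44 of the 14244 genes in the table: 4 of complex II, 9 of complex III, 1 for cytochrome c, 14 of complex IV and 16 of complex V. Of these, 43 had a mean of at least 10 and were tested. The muscle isoform gene *Cox6a2*, with a mean below 10, was not.

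Electrons taken from succinate by complex II, or from NADH by complex I, are passed by ubiquinone to complex III, which hands them to cytochrome c. Complex IV then uses them to reduce oxygen. Complexes III and IV pump protons across the inner mitochondrial membrane, and complex V, the ATP synthase, lets the protons back through its Fo ring to drive ATP formation in its F1 head. Absorptive enterocytes carry many mitochondria, which supply the energy for nutrient uptake. Complexes III, IV and V also hold subunits encoded by mitochondrial DNA, which the symbol pattern does not take.

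Gut epithelial cells of 8-week-old C57BL/6 mice were compared between wild-type (WT, n = 5) and Chd8L+/- littermates (n = 7), 1 library per mouse. The Chd8L+/- mice, all male like their controls, carried a germline deletion in 1 allele of the long isoform of *Chd8*, which encodes a chromatin remodeler, so every cell of the body and not the epithelium alone was heterozygous. The cells were shaken off washed intestine and not sorted, and RNA was selected by its poly(A) tail. The comparison asks which genes of the epithelium differ when *Chd8* is haploinsufficient.

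Promoter sequence was available in the RefSeq table for 35 of the 44 genes, and the 250 bases before each start were searched on both strands for 4 motifs known from respiratory genes. The letters searched were GCGCATGC for NRF1, CCGGAAG for ETS factors such as GABPA, AAGATGGC for YY1 and TGACGTCA for CREB; the first of these overlaps its own reverse complement. At least 1 of the 4 was present in 14 of the 38 windows of these genes (36.8%) and in 11.5% of all 32851 windows in the table. NRF1 letters were in 6 windows (15.8%, against 2.26% of all), those of *Atp5g2*, *Atp5k*, *Atp5l*, *Cox6a1*, *Cycs* and *Sdhb*. ETS letters were in 9 windows (23.7%, against 6.91%), those of *Atp5e*, *Atp5h*, *Atp5j*, *Atp5l*, *Cox6a1*, *Cox6b1*, *Sdhd*, *Uqcr11* and *Uqcrh*. CREB letters were in 2 windows (5.26%, against 1.55%), those of *Cycs* and *Uqcrfs1*, and YY1 letters in 1 (2.63%, against 1.56%), that of *Atp5j*. No promoter is given here for *Atp5a1*, *Cox4i1*, *Cox6a2*, *Cox6c*, *Cyc1*, *Sdhc*, *Uqcrb*, *Uqcrc2* and *Uqcrq*.

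Windows of 5 genes are shown, as examples from complexes III, IV and V and cytochrome c with the letters of NRF1, ETS or CREB motifs, and with *Cox7a1* as a member with a large difference and none of these letters. Each run is read 5′ to 3′ on the strand of its gene, from 180 bases before the RefSeq start to the last base outside the gene, with motif letters in capitals (build GRCm38.p6). They lie at chr10:80406831-80407001 on the minus strand (*Uqcr11*), chr6:50566570-50566749 on the minus strand (*Cycs*), chr5:115348982-115349138 on the minus strand (*Cox6a1*), chr7:30183991-30184143 on the plus strand (*Cox7a1*) and chr2:174464106-174464281 on the minus strand (*Atp5e*). None overlaps an exon of its own gene in GENCODE M21, and those of *Cycs* and *Cox6a1* overlap non-coding transcripts of the other strand.
Uqcr11: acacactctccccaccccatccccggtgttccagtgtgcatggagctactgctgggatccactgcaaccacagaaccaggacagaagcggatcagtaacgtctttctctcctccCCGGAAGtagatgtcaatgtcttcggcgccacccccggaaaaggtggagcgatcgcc
Cycs: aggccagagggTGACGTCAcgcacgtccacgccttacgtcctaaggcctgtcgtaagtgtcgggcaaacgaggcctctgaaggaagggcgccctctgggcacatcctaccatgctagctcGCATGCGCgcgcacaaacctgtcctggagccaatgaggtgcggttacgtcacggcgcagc
Cox6a1: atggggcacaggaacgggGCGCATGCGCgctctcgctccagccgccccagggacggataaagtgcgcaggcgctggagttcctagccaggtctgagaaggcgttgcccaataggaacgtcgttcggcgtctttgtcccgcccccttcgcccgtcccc
Cox7a1: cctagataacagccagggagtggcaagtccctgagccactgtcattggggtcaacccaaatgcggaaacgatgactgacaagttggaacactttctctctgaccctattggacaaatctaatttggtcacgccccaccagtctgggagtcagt
Atp5e: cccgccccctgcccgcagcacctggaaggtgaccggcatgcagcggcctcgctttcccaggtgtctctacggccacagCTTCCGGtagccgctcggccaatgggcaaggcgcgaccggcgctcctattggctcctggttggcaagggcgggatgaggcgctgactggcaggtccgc

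The *Cycs* window held CREB letters 169 bases before the start and NRF1 letters 60 bases before it. In *Cox6a1* the NRF1 letters and their reverse complement ran into each other, beginning 162 and 160 bases before the start. The ETS letters counted for *Cox6a1* lay outside the run shown. ETS letters began 66 bases before the start in *Uqcr11* and 102 bases before it in *Atp5e*. A match shows only that these letters are present.

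Values below are normalized counts, that is, reads divided by the DESeq2 size factor of the library, and a log2 fold change is Chd8L+/- minus WT on the log2(normalized count + 1) scale from limma. An adjusted p is corrected over all 12808 genes tested, an unadjusted p is not, and the threshold for both is 0.05. *Chd8* itself was measured at 953 ± 85.5 in WT and 1297 ± 123 in Chd8L+/- libraries (mean ± SD). All 7 Chd8L+/- libraries (1084 to 1483) lay above all 5 WT libraries (823 to 1050.2), WT replicate 2 included. The counts cover the whole gene, so they do not check the deleted part. The libraries held 15691662 to 20761315 reads. WT replicate 2 stood apart from the other 4 WT libraries: on the first principal component it lay at 41.0, the other 4 between -67.5 and -26.2, and the Chd8L+/- libraries between 0.26 and 42.7. Whether its label is right was not tested beyond its *Chd8* count, and results are also given without it.

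The members were lower in Chd8L+/- epithelium almost as a block. The log2 fold change was below 0 for 42 of the 43 genes tested, with *Cox6b2* the exception, against 48.6% of all genes tested. Its median over the members was -0.52 (range -1.14 to 0.42) and 0.01 over all genes. Among the 1653 other genes with a mean at or above 1827, 72.0% were below 0. Among the 928 genes tested with transcripts under 1000 bases the share was 69.4%. At the unadjusted threshold 34 members (79.1%) were lower and 0 were higher, against 11.8% lower and 12.5% higher of all genes. None passed the adjusted threshold in limma, where the smallest adjusted p of a member was 0.121; of all genes, 0.0234% were called lower there. edgeR also called 0 members, with 33 at its unadjusted threshold (12.3% of all genes), while DESeq2 called 16 lower (4.49% of all genes). No member separated the groups completely, which 0.273% of all genes did downward.

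Besides the method, these calls depended on WT replicate 2. With it left out, limma called 30 members lower at the adjusted threshold (13.6% of all genes), and the median log2 fold change was -0.62. DESeq2 then called 35 members (15.4% of all genes), edgeR 27 (12.2%) and limma with length and GC trends removed 24 (15.3%). It had the lowest of the WT values for 35 members. The count of members at the unadjusted threshold ran from 23 without WT replicate 5 to 38 without Chd8L+/- replicate 6. The share of all genes at that threshold was not taken for these fits. A lower mean was kept by 42 members whichever library was left out.

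**Figure D1:**
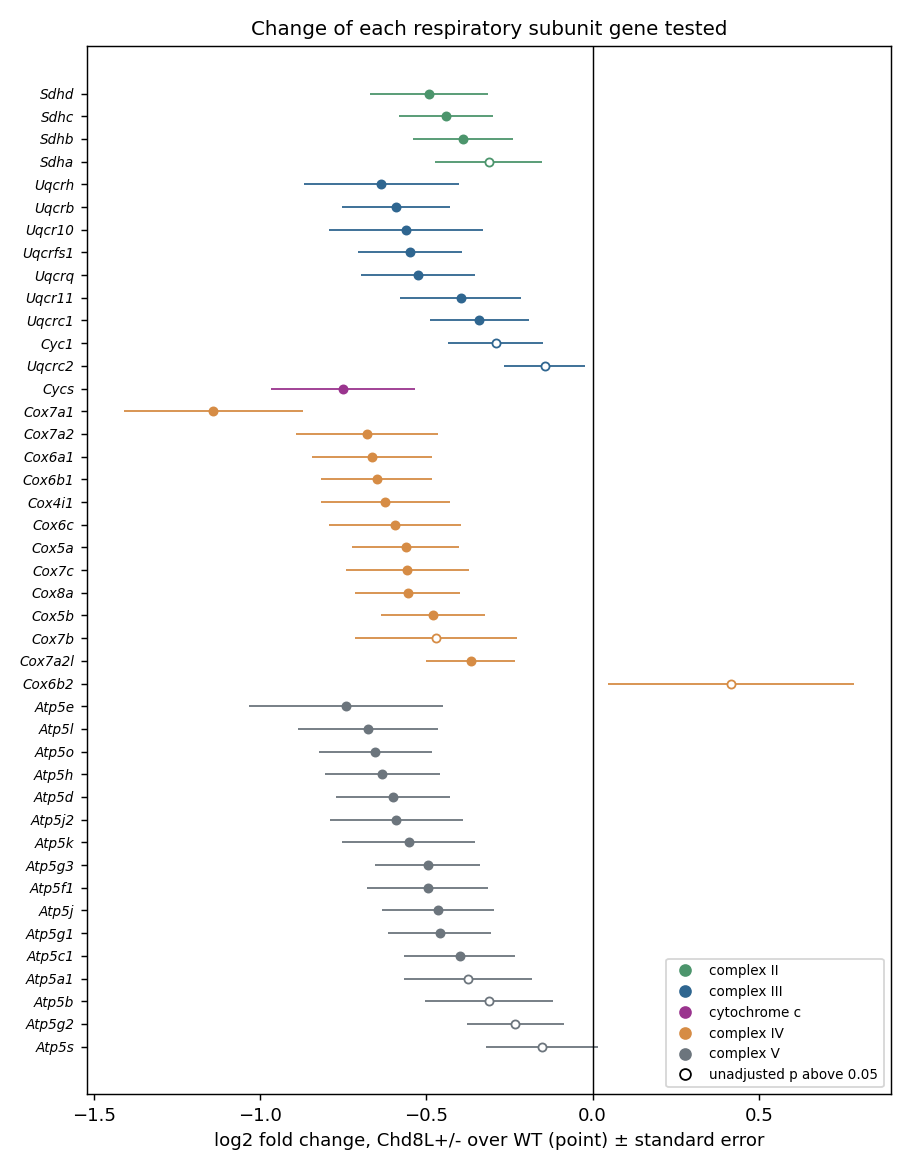
Log2 fold change (Chd8L+/- over WT) with its standard error for each of the 43 genes tested, coloured by complex, with open points for an unadjusted p above 0.05. All points but that of Cox6b2 lie left of 0, and Cox7a1 lies farthest left at -1.14.

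Taken per library, the members together held 1.46%, 1.29%, 1.62%, 1.49% and 1.79% of the reads in the WT libraries. In the Chd8L+/- libraries the share was 0.996% at the lowest, 1.16% at the median and 1.59% at the highest. Thus 6 of the 7 Chd8L+/- libraries lay below every WT library, and 1, replicate 6, lay among them. The mean log2 level of the members was 12.1 ± 0.275 in WT and 11.6 ± 0.225 in Chd8L+/- libraries, with 7 of 7 below the WT median and 5 of 7 below the lowest WT library. WT replicate 5 had the highest of the 12 values for 32 members, and Chd8L+/- replicates 1 and 5 the lowest for 23 and 16 members. Since these are bulk samples, fewer cells of a type rich in mitochondria and less RNA per cell cannot be told apart.

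**Figure D2:**
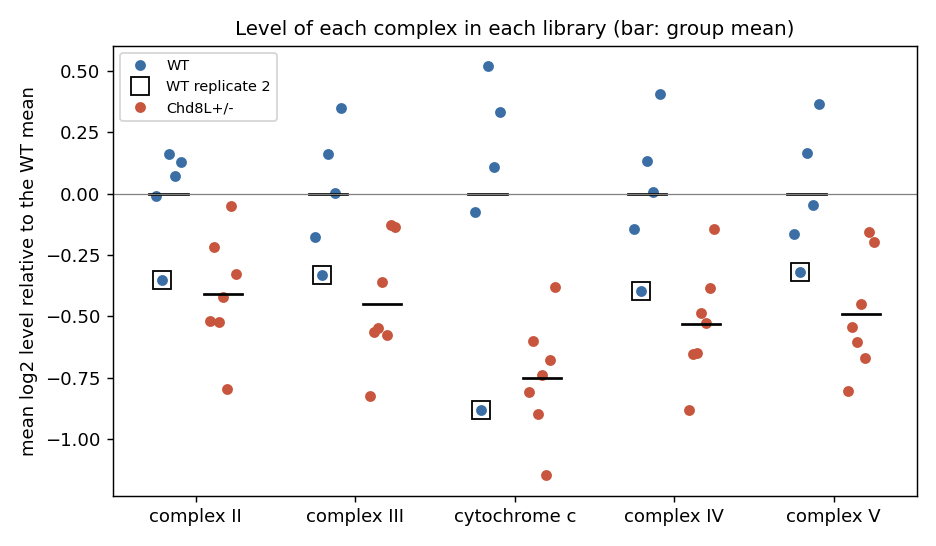
Mean log2 level of each complex in each library relative to the WT mean, with a bar for each group mean and a square around WT replicate 2. In all 5 columns the 7 Chd8L+/- libraries lie below the WT mean, and WT replicate 2 lies among them.

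Complex II, succinate dehydrogenase, is the one respiratory complex that is also a citric acid cycle enzyme, and all its subunits are nuclear. All 4 genes were lower, 3 of them at the unadjusted threshold, with a median log2 fold change of -0.41. *Sdhc*, a membrane anchor subunit that binds ubiquinone, had values of 4844, 3576, 4948, 5062 and 5133 in WT, and 2695 at the lowest, 3471 at the median and 4554 at the highest in Chd8L+/- libraries. Apart from replicate 2, every WT library was above all 7 Chd8L+/- libraries. How many of all genes separate in this way with replicate 2 set aside was not counted, here or for the members below. Its log2 fold change was -0.44 ± 0.14 (SE; unadjusted p = 0.00785, adjusted p = 0.125 in limma), and the adjusted p was 0.0118 without WT replicate 2. The other anchor, *Sdhd*, went from 7317 ± 1593 to 5203 ± 1094 (log2 fold change -0.49 ± 0.18), and the iron-sulfur subunit *Sdhb* from 5542 ± 905 to 4233 ± 721 (-0.39 ± 0.15). The flavoprotein *Sdha*, which oxidises succinate, missed the unadjusted threshold, with 11242 ± 1216 in WT and 9166 ± 1798 in Chd8L+/- libraries (-0.31 ± 0.16, unadjusted p = 0.0736).

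In complex III all 9 genes had a lower mean, 7 at the unadjusted threshold, and the median log2 fold change was -0.52. The small accessory subunit gene *Uqcrb* had the smallest p: it was at 2079, 1578, 2668, 2389 and 2874 in WT, and at 1158, 1435 and 1927 (lowest, median, highest) in Chd8L+/- libraries. The 4 WT libraries other than replicate 2 were again above all of the Chd8L+/- ones. The log2 fold change of *Uqcrb* was -0.59 ± 0.16 (adjusted p = 0.121, and 0.00526 without WT replicate 2, in limma). *Uqcrfs1*, the Rieske iron-sulfur protein that takes electrons from ubiquinol, went from 5932 ± 1115 to 4039.5 ± 674 (-0.55 ± 0.16), *Uqcrq* from 4167 ± 1016 to 2875 ± 540 (-0.52 ± 0.17) and the hinge protein *Uqcrh* from 4549 ± 1464 to 2938 ± 893 (-0.64 ± 0.23). *Uqcr10* and *Uqcr11*, also small accessory subunits, had -0.56 ± 0.23 and -0.40 ± 0.18. The longer transcripts of 3 core subunits had log2 fold changes closer to 0. *Uqcrfs1*, also a core subunit and with a transcript of 1363 bases, was not among them. The contrast was mixed with length and GC trends removed. There *Uqcrc1* had -0.26, *Cyc1* -0.20 and *Uqcrc2* -0.14. *Uqcrfs1* (-0.49), *Uqcrh* (-0.39) and *Uqcrb* (-0.36) stayed farther from 0 than these. *Uqcr10* (-0.23), *Uqcrq* (-0.17) and *Uqcr11* (-0.07) did not. *Uqcrc1* was at 8262 ± 1094 and 6561 ± 1160.1 (-0.34 ± 0.15, unadjusted p = 0.0395). *Cyc1*, the haem protein that reduces cytochrome c, was at 5633 ± 691 and 4638 ± 821 (-0.29 ± 0.14, unadjusted p = 0.0612). For *Uqcrc2* the values were 5853, 5427, 6360.0, 5881 and 7022 in WT and 4790.2, 5373 and 6618 (lowest, median, highest) in Chd8L+/- libraries, so the groups overlapped along most of their range. Its log2 fold change was -0.14 ± 0.12 (unadjusted p = 0.250), and its sign turned under quantile normalization (0.10). Whether the core and accessory subunits differ in their change was not tested.

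*Cycs* (ENSMUSG00000063694.5), on chromosome 6 from base 50562563 to 50566538 on the minus strand, encodes somatic cytochrome c, the carrier between complexes III and IV that also triggers apoptosis once it is released. It was at 9853, 5628, 14882, 11193 and 13092 in WT, and at 4685, 6218 and 7973 (lowest, median, highest) in Chd8L+/- libraries. WT replicate 2 lay inside the Chd8L+/- range, and the 4 other WT libraries were above it. The log2 fold change was -0.75 ± 0.22 (adjusted p = 0.121 in limma), with an adjusted p of 0.00304 without WT replicate 2 and 0.0115 in DESeq2.

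Complex IV, cytochrome c oxidase, had 12 of 13 tested genes lower, 11 of them (84.6%) past the unadjusted threshold, with a median log2 fold change of -0.56. The ubiquitous subunit genes were all lower. *Cox4i1* was at 11589.7, 9490.4, 16713, 14943 and 19493 in WT, and at 6957, 9555 and 11500.2 (lowest, median, highest) in Chd8L+/- libraries. Its log2 fold change was -0.62 ± 0.19. *Cox6b1* was at 5323, 4425, 6866, 5653 and 8144 in WT, and at 2944, 3735 and 4748 in Chd8L+/- libraries, where 5 of 7 were below the lowest WT value. Its log2 fold change was -0.65 ± 0.17, with an adjusted p of 0.121 in limma and 0.0109 in DESeq2. *Cox6a1* went from 12927 ± 3413 to 7960.0 ± 991 (-0.66 ± 0.18). The matrix-side subunits *Cox5a* and *Cox5b* went from 4471 ± 951 to 2996 ± 504 (-0.56 ± 0.16) and from 4861 ± 909 to 3483 ± 649 (-0.48 ± 0.16). *Cox8a*, *Cox7c*, *Cox6c*, *Cox7a2* and *Cox7a2l*, also lower at the unadjusted threshold, had log2 fold changes between -0.68 and -0.37, and *Cox7b* had -0.47 ± 0.24 (unadjusted p = 0.0740).

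*Cox7a1* (ENSMUSG00000074218.3, chromosome 7 from base 30184144 to 30186078 on the plus strand), the subunit 7A isoform known from heart and muscle, had the largest log2 fold change of the tested members with the values as deposited. With length and GC trends removed it was second to *Cycs* (-0.79 against -0.82). It was at 2074, 1336, 3246, 2529 and 4365 in WT, and at 881, 1008 and 2098 (lowest, median, highest) in Chd8L+/- libraries. In 6 of the 7 Chd8L+/- libraries it was below every WT library, the exception being replicate 7. The log2 fold change was -1.14 ± 0.27 (unadjusted p = 0.000836, adjusted p = 0.121 in limma), and the adjusted p was 0.00356 without WT replicate 2 and 0.00504 in DESeq2. Per 1000 bases of transcript it was at 6895 in WT, above the ubiquitous *Cox7a2* at 5738. In Chd8L+/- libraries it was at 3014, below *Cox7a2* at 3539. As mean counts *Cox7a1* was below *Cox7a2* in both groups (2710 and 3781 in WT, 1185 and 2332 in Chd8L+/-). The muscle markers listed summed to 223 to 345 normalized counts in WT and 183 to 2004 in Chd8L+/- libraries, with medians of 265 and 323. None of the 5 measured was at 0 in any library, and 1 of them was higher at the unadjusted threshold. Their part in the level of *Cox7a1* was not tested.

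The testis isoform gene *Cox6b2* was the one member of the 43 tested with a higher mean in Chd8L+/- libraries. It was at 104, 89.3, 24.2, 50.6 and 53.9 in WT, and at 32.8, 92.1 and 115 (lowest, median, highest) in Chd8L+/- libraries. The groups overlapped over most of their range, and the log2 fold change was 0.42 ± 0.37 (unadjusted p = 0.280). *Cox6a2*, the heart and muscle isoform of subunit 6A, was at 3.79 ± 1.81 in WT and 6.35 ± 3.53 in Chd8L+/- libraries, against 12927 ± 3413 and 7960.0 ± 991 for its ubiquitous partner *Cox6a1*.

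**Figure D3:**
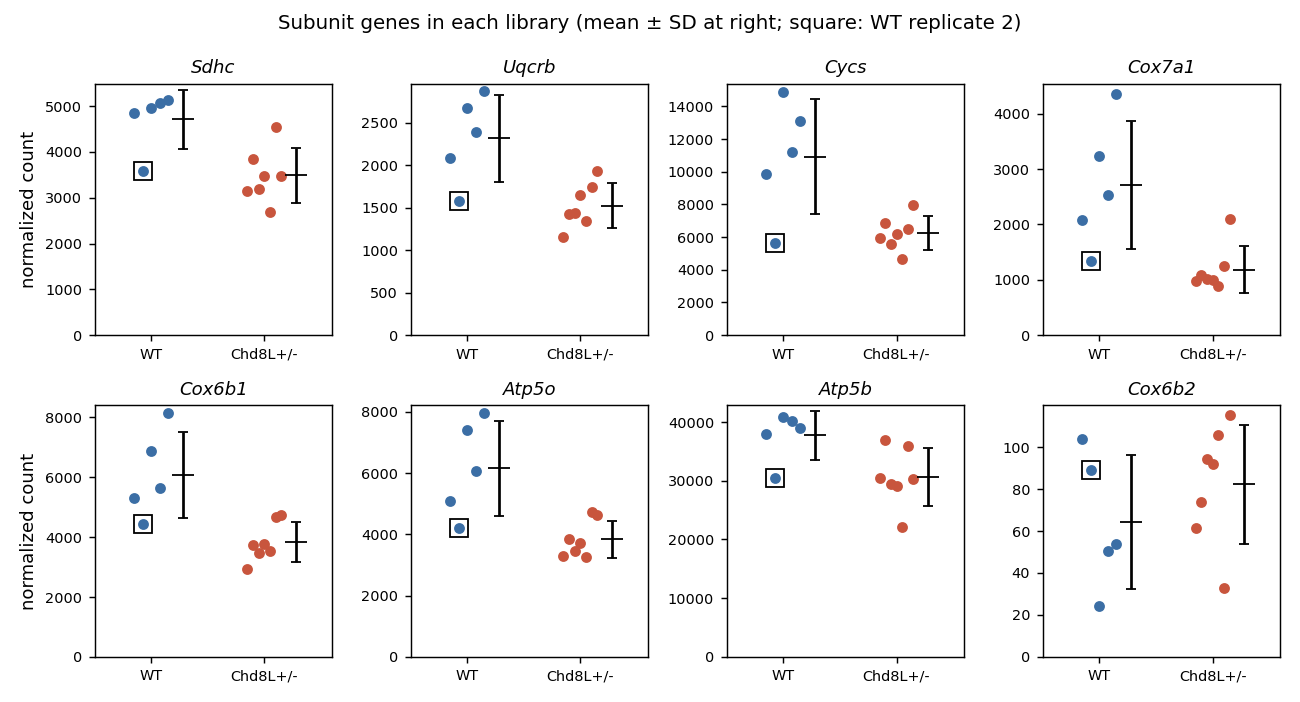
Normalized count of 8 members in each library, with mean ± SD to the right of the points and a square around WT replicate 2. In Sdhc, Uqcrb and Cycs the 4 other WT libraries lie above all 7 Chd8L+/- libraries, while Cox6b2 overlaps between the groups. The share of all genes that separate in this way was not counted.

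All 16 genes of complex V had a lower mean, 12 at the unadjusted threshold, with a median log2 fold change of -0.50. Among the 5 F1 genes the alpha and beta subunits had the highest levels per 1000 bases and missed the unadjusted threshold. *Atp5b*, the catalytic beta subunit, was at 38051, 30559, 40817, 40143 and 39046 in WT, and at 22062, 30244 and 37004 (lowest, median, highest) in Chd8L+/- libraries. WT replicate 2 lay inside the Chd8L+/- range, the other WT libraries above it, and the log2 fold change was -0.31 ± 0.19 (unadjusted p = 0.130). The alpha subunit *Atp5a1* was at 31593 ± 4145 and 24578 ± 4726 (-0.37 ± 0.19, unadjusted p = 0.0722). The 3 central F1 subunits were past the unadjusted threshold. The gamma subunit *Atp5c1*, the shaft that turns in the head, went from 7257 ± 1623 to 5466 ± 964 (-0.40 ± 0.17). The delta subunit *Atp5d* went from 7425 ± 1719 to 4838 ± 805 (-0.60 ± 0.17) and the epsilon subunit *Atp5e* from 4200.0 ± 1523 to 2586 ± 1112 (-0.74 ± 0.29).

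Of the 10 genes for the peripheral stalk and Fo, 9 were lower at the unadjusted threshold, with a median log2 fold change of -0.52. *Atp5o*, the stalk protein that confers sensitivity to oligomycin, was at 5104, 4211, 7402, 6073 and 7972 in WT, and at 3267, 3709 and 4713 (lowest, median, highest) in Chd8L+/- libraries. In 5 of 7 Chd8L+/- libraries it was below the lowest WT value, and its log2 fold change was -0.65 ± 0.17 (adjusted p = 0.121 in limma, 0.00507 without WT replicate 2). The stalk subunit d gene *Atp5h* went from 3091 ± 657 to 2001 ± 452 (-0.63 ± 0.17), and *Atp5l*, subunit g of Fo, from 2415 ± 703 to 1514 ± 421 (-0.68 ± 0.21). *Atp5s*, a coupling factor gene outside the stalk and ring, was low, at 102 ± 18.4 and 91.4 ± 14.3 (-0.15 ± 0.17, unadjusted p = 0.379).

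Subunit c, the part of the Fo ring that carries the protons, is encoded by 3 genes whose mature proteins are the same. *Atp5g3* made up 77.2% ± 3.11 of the summed level of the 3, per base of transcript, in WT and 75.4% ± 2.06 in Chd8L+/- libraries. The shares were 12.1% ± 1.46 and 12.2% ± 1.36 for *Atp5g1*, and 10.7% ± 2.04 and 12.4% ± 1.49 for *Atp5g2*. *Atp5g3* went from 14878 ± 2752 to 10475 ± 1396 (log2 fold change -0.50 ± 0.16) and *Atp5g1* from 2230.2 ± 241 to 1653 ± 431 (-0.46 ± 0.16). *Atp5g2* was at 1246 ± 204 and 1067 ± 210 (-0.23 ± 0.15, unadjusted p = 0.136), and its sign turned once transcript length and GC content were taken out (0.10).

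Isoform balance was tested as the log2 ratio of 2 counts within a library, in the 6 of 10 listed pairs with both genes tested. An exact two-sided permutation test of the genotype labels was used. Paired genes can differ in transcript length (*Cox7a1* 393 and *Cox7a2* 659 bases), and the ratios were not tested with length and GC trends removed. The muscle to ubiquitous ratio *Cox7a1*/*Cox7a2* was -0.53 ± 0.24 in WT and -0.997 ± 0.23 in Chd8L+/- libraries, where 7 of 7 were below the WT median and 4 below the lowest WT ratio. The difference of -0.46 had an exact p of 0.0101 and an adjusted p of 0.0606 over the 6 pairs. The adjusted exact p was 0.0364 without WT replicate 2. The *Cox6b2*/*Cox6b1* ratio was -6.67 ± 1.05 in WT and -5.61 ± 0.70 in Chd8L+/- libraries (exact p = 0.0644, adjusted p = 0.129), and *Cox7a2l*/*Cox7a2* was -0.47 ± 0.28 and -0.16 ± 0.23 (exact p = 0.0631, adjusted p = 0.129). *Cox7a2l* encodes a factor that joins complexes III and IV in supercomplexes. Within subunit c, the ratios *Atp5g1*/*Atp5g2*, *Atp5g1*/*Atp5g3* and *Atp5g2*/*Atp5g3* differed by -0.23, 0.04 and 0.26 (adjusted exact p = 0.153, 0.756 and 0.153). No pair passed the adjusted threshold with all libraries. Without WT replicate 2 the ratios *Cox6b2*/*Cox6b1* (1.33, adjusted exact p = 0.0485), *Cox7a2l*/*Cox7a2* (0.40, adjusted exact p = 0.05) and *Atp5g2*/*Atp5g3* (0.39, adjusted exact p = 0.0455) also reached it, and so did *Cox6b2*/*Cox6b1* without Chd8L+/- replicate 6 (1.32, adjusted exact p = 0.026).

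Per 1000 bases of transcript, WT levels were highest for *Cox6a1* (22639.9), *Atp5g3* (20838), *Atp5b* (19689) and *Cox4i1* (19390.3), and lowest for *Cox6b2* (116), *Atp5s* (68.7) and *Cox6a2* (5.57). As normalized counts, 31 members were among the 1000 genes with the highest means, and the median of the members was 4015 against 336 for all genes. Of the 1653 other genes at or above a mean of 1827, 20.1% were lower at the unadjusted threshold, with a median log2 fold change of -0.17.

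Transcript length moved with the change. The 27 members with transcripts under 1000 bases had a median log2 fold change of -0.59, 25 of them past the unadjusted threshold, and the 16 longer ones -0.38, with 9 past it. The same split over all genes tested gave -0.23 for 928 short genes (29.7% lower at that threshold) and 0.03 for 11794 longer ones (10.4%). With length and GC trends removed from each library, the member median was -0.36, and -0.36 and -0.33 for the short and longer members. Then 23 members were lower at the unadjusted threshold, against 12.5% of all genes, and the complex III median was -0.23. Quantile normalization gave a median of -0.32 and 12 such members, against 10.4% of all genes. The part that RNA quality or library preparation has in this was not tested.

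**Figure D4:**
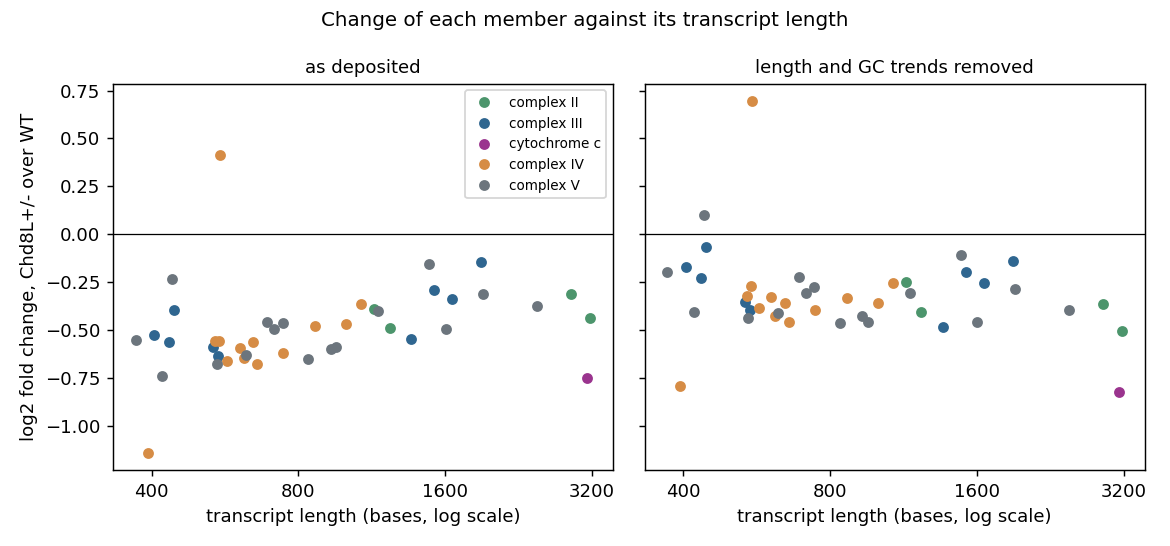
Log2 fold change of each tested member against its transcript length in bases (log scale), as deposited at left and with length and GC trends removed at right. At left the 27 members under 1000 bases lie lower than the longer ones (medians -0.59 and -0.38); at right the medians are -0.36 and -0.33.

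The library names open with the letters A to D, whose meaning the labels do not give. The median difference of the members was -0.28 within letter A (2 WT, 2 Chd8L+/-), and -0.38 there without WT replicate 2. It was -0.87 within B (2 WT, 1 Chd8L+/-) and -0.73 within C (1 WT, 3 Chd8L+/-). Within A, B and C, 43, 42 and 42 of 43 members were lower, against 48.3%, 48.5% and 51.4% of all genes tested. D held 1 Chd8L+/- library. With the letter as a term in limma, 3 members were called lower at the adjusted threshold, against 2.15% of all genes, and the median was -0.58. With the replicate number as a block in its place, 35 members were lower at the unadjusted threshold, against 9.24% of all genes.

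Other parts of the pathway were read from lists. Of all genes tested, 11.8% were lower and 12.5% higher at the unadjusted threshold. All 36 complex I subunit genes were lower, 26 at the unadjusted threshold, with a median log2 fold change of -0.44. *Ndufc1* had the smallest p (1369 ± 341 and 802 ± 185, log2 fold change -0.76 ± 0.19). The 6 carriers and outer membrane channels were all lower, 4 at that threshold, with a median of -0.48: the porin *Vdac3* had -0.61 ± 0.17, *Vdac2* -0.48 ± 0.19 and the phosphate carrier *Slc25a3* -0.37 ± 0.15. Of 4 other genes listed as ATP synthase factors 2 were past it, *Usmg5* at -0.75 ± 0.26 and 2010107E04Rik at -0.70 ± 0.22. Of 14 citric acid cycle enzymes 6 were lower at that threshold and 1, *Idh2*, was higher (0.62 ± 0.23), with a median of -0.18.

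The genes that build or regulate the complexes were mixed in direction. Of 41 assembly factors tested, 23 had a log2 fold change below 0, with a median of -0.04. At the unadjusted threshold 10 were lower (24.4%) and 3 higher, against 11.8% lower and 12.5% higher of all genes. *Higd1a*, linked to complexes III and IV, had -0.85 ± 0.23 and *Sdhaf4*, a complex II assembly factor, -0.65 ± 0.19, whereas *Fastkd2*, which acts on mitochondrial RNA, had 0.88 ± 0.27. Of 17 regulators of mitochondrial gene expression 4 had a lower mean. The nuclear receptor *Esrra*, an activator of oxidative genes, was lower (6062 ± 1370 and 4333 ± 380, -0.45 ± 0.16), and the mitochondrial RNA polymerase *Polrmt* (0.47 ± 0.14) and its partner *Tfb2m* (0.40 ± 0.18) were higher at the unadjusted threshold, and the list median was 0.15. Differences between these lists were not tested.

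**Figure D5:**
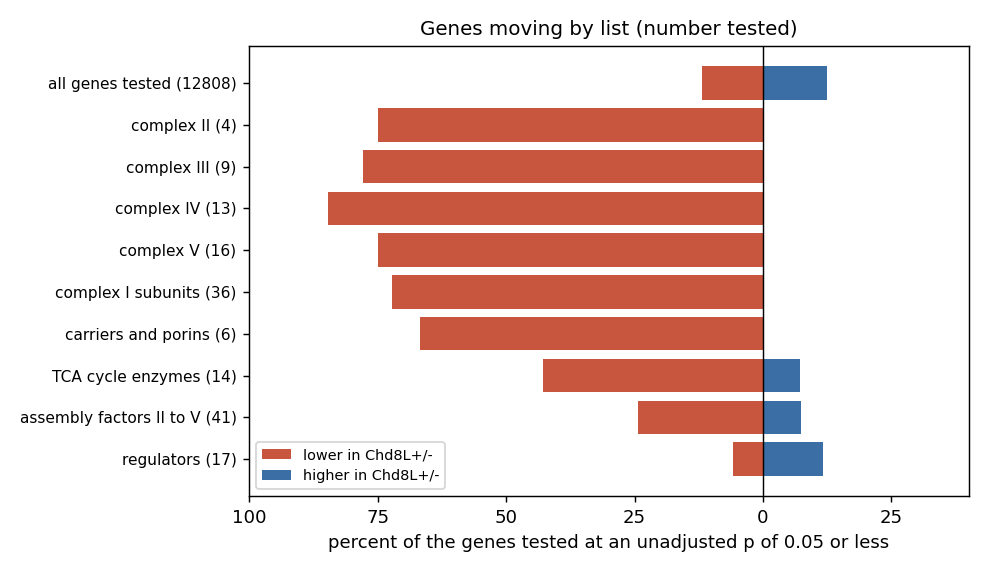
Share of tested genes, in percent, past the unadjusted threshold, lower (left) or higher (right) in Chd8L+/-, for complexes II to V, for other mitochondrial lists and for all genes, with the number tested in brackets. Complexes II to V reach 75% to 84.6% on the left and 0 on the right, against 11.8% and 12.5% for all genes tested.

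Epithelial markers were abundant in every library, and markers of some cell types differed between the groups. The 8 enterocyte markers summed to 322522 to 700027 in WT and 266316 to 628195 in Chd8L+/- libraries. The log2 fold change was below 0 for 7 of 8, and 1 was lower at the unadjusted threshold. *Anpep*, 1 of these 7, had a higher mean count in Chd8L+/- libraries, as did *Lct*. The 6 proliferation markers summed to 2389 to 9921 and 5997 to 10443, with 5 of 6 higher at that threshold, and the 4 tuft cell markers to 1210.5 to 10759 and 748 to 4619, with 4 of 4 lower. WT replicate 2 had the lowest WT sum for enterocyte and tuft markers and the highest for proliferation markers. The 4 stroma markers summed to 4.44 to 187 in WT and 31.0 to 759 in Chd8L+/- libraries, and 3 of them were at 0 in some library. The part these shifts have in the lower level of the respiratory genes was not tested.

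Exons of 13 members overlap exons of another gene in GENCODE M21, for 9 of them a protein-coding one, among these *Cox4i1*, *Cox6c*, *Atp5a1* and *Atp5j*. Whether strand was used in the counting is not given in the sources used here, so reads of such partners cannot be told apart. Many of these genes also have processed pseudogenes, and how reads shared with those were counted is likewise not given.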

How the data were processed

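RNA of gut epithelial cells from 12 mice (5 WT, 7 Chd8L+/-) was sequenced by poly(A)-selected RNA-seq. The authors aligned reads with Tophat2 to mouse mm10 and normalized them with DESeq2; the counting program, annotation and strand setting are not given in the sources used here. The deposited values are signal: reads per gene divided by a size factor of each library, and whole reads could be recovered from 100% of them (within 0.1 of a whole number). That gave 15691662 to 20761315 reads per library.

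Normalized values were tested as log2(value + 1) with limma (3.58.1, R 4.3.3; trend on), on 12808 genes with a mean of at least 10, with Benjamini-Hochberg adjustment. A standard error is that of the limma coefficient. edgeR (4.0.16) and DESeq2 (1.42.0) were run on the recovered reads. The limma, edgeR and DESeq2 fits, the replicate block and quantile normalization were checked on simulated data, and the other settings were not. Other pseudocounts (0.5 and 5), filters, quantile normalization, removal of length and GC trends (splines with 4 degrees of freedom), blocks and leaving out each library were tried. Replicates were mice, each with 1 library. Lengths are those of the GENCODE M21 principal transcript, known for 99.3% of genes, and promoters are from RefSeq (GRCm38.p6).

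Members and lists were chosen with earlier results of these data known. The genes named were all of complex II, the core subunits of complexes III, IV and F1, isoform pairs, the 3 smallest p and the largest change of each complex and list, and exceptions in direction or level. *Atp5s*, *Cox7b*, the WT level order and the promoter windows shown were chosen after values were seen.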

Additional observations from a re-analysis of the deposited data

Results flagged for a closer look

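In 7 of 108 groups of one gene or ratio in one genotype, the highest or lowest library lay farther from the rest than Dixon's 95% limit allows; chance flags about 1 in 20 groups, or 5.4 here. Values are on the log2 scale. WT replicate 2 was low for *Atp5b* (14.9, the other WT libraries 15.2 to 15.3) and *Sdhc* (11.8, the others 12.2 to 12.3). Chd8L+/- replicate 6 was high for *Atp5g1* (11.3, the others 10.4 to 10.7) and *Cox5a* (11.98, the others 11.3 to 11.6). It also had a low *Cox6b2*/*Cox6b1* ratio (-7.11, the others -5.64 to -5.05) and a high *Atp5g1*/*Atp5g3* ratio (-2.30, the others -2.84 to -2.68). Chd8L+/- replicate 7 was high for *Cox7a1* (11.04, the others 9.78 to 10.3).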

How the results depend on the processing

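The number of members past an adjusted p of 0.05 was 0 in limma and ranged from 0 to 30 over libraries left out. The value without WT replicate 2 was 30 (13.6% of all genes). It was 16 in DESeq2 (4.49%) and 3 with the library letter as a block (2.15%). Alternatives chosen after seeing the data, all without WT replicate 2, gave 35 in DESeq2 (15.4% of all genes), 27 in edgeR (12.2%) and 24 with length and GC trends removed (15.3%). Quantile normalization left 12 members lower at an unadjusted p of 0.05 (10.4% of all genes). The member median was -0.28 among libraries opening with A and -0.87 among those opening with B, and the complex III median was -0.23 with length and GC trends removed. *Atp5g2* turned to 0.10 with those trends removed (0.15 also without WT replicate 2), and *Uqcrc2* to 0.10 under quantile normalization. Over libraries left out the *Atp5g1*/*Atp5g3* ratio ran from -0.029 to 0.11, changing sign, *Cox6b2*/*Cox6b1* from 0.71 to 1.33 (adjusted exact p 0.0485 without WT replicate 2 and 0.026 without Chd8L+/- replicate 6), *Cox7a1*/*Cox7a2* from -0.56 to -0.41, *Cox7a2l*/*Cox7a2* from 0.23 to 0.40 and *Atp5g2*/*Atp5g3* from 0.16 to 0.39. The causes were not tested. Of the single-gene values, 937 kept direction and side of the threshold, 135 newly passed it and 3 changed sign. Same-numbered WT and Chd8L+/- libraries did not deviate together (correlations -0.34 to 0.19). Correlations of expression cannot show whether the numbers denote pairs of mice. With a replicate block, 0 members passed the adjusted threshold, 35 were lower at the unadjusted one (9.24% of all genes) and the median was -0.65. Depth limits what can be said of *Cox6a2*, *Cox6b2* and *Atp5s*.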
